A study of Mus musculus with 14 samples.

Results

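The 8 genes described here are those through which endothelium acts on blood clotting and clot removal: Vwf, F8, F3, Tfpi, Thbd, Procr, Plat and Plau. All probe sets that the array annotation assigns to one of these symbols were taken, 13 probe sets for the 8 genes, out of 45101 probe sets and 18193 genes on the Affymetrix mouse genome array. The 14 mouse samples, 1 array each, formed 6 groups: liver sinusoidal endothelial cells (LSEC) with MxCre (Cre+, 3 arrays) and without it (control, 3 arrays), lung endothelial cells Cre+ (2) and control (2), and thymus Cre+ (2) and control (2). Cre+ and control mice alike carried floxed alleles of the forkhead genes Foxo1, Foxo3 and Foxo4, which the labels write as Fk1 L/L, as Fk2 L/L and as Afx L/L, on an FVBn background, so the groups of a tissue differed by the MxCre transgene. The Mx promoter is induced by interferon and is not restricted to endothelium. The labels give no age or sex, do not say how Cre was induced or how cells were isolated, and do not say whether replicates came from separate animals, so p-values measure the spread between these samples.

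Endothelium keeps blood fluid and prepares for injury with the same set of secreted and surface proteins. Von Willebrand factor (Vwf) tethers platelets, is stored in Weibel-Palade bodies of endothelial cells, and carries coagulation factor VIII (F8) in plasma, and LSEC are known as a main source of factor VIII. Tissue factor (F3) starts coagulation and tissue factor pathway inhibitor (Tfpi) restrains it, thrombomodulin (Thbd) and the endothelial protein C receptor (Procr) turn thrombin towards activation of the anticoagulant protein C, and tissue-type (Plat) and urokinase-type (Plau) plasminogen activators start fibrinolysis.

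The promoter windows of F8, the gene of this set that was lower in Cre+ LSEC, and of Tfpi, whose probe sets disagreed between tissues, are shown first. RefSeq promoter windows (assembly GRCm38.p6, 250 bases before to 50 after a transcript start) matched 4 of the 8 genes: F8, Procr, Tfpi with 2 starts, and F3. Vwf, Thbd, Plat and Plau had no match. Each window was searched on both strands for 4 motifs. The FoxO consensus was spelled GTAAACA. A second element known for FoxO factors was spelled CAAAACA. The motif of GATA factors was spelled AGATAA, and that of Ets factors was spelled AGGAAG. No matches overlap in these windows. In the sequences, written 5′ to 3′ on the gene's strand, capitals mark every match, on either strand. The first sequence is F8 at chrX:75379992-75380291 (minus strand), and the other 2 are the outer and inner starts of Tfpi at chr2:84476710-84477009 and chr2:84474125-84474424 (both minus strand).
F8: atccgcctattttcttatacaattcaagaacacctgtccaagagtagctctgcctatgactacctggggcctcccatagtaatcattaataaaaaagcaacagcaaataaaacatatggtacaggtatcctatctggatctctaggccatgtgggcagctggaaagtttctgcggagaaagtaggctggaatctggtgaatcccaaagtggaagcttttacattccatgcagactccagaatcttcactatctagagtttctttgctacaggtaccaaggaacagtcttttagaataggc
Tfpi outer start: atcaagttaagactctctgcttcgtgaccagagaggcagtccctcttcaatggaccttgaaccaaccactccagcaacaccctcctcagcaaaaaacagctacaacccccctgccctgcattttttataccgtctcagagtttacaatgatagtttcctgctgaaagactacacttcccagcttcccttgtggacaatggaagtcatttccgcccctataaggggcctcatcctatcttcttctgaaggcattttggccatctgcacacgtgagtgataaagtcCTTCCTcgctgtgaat
Tfpi inner start: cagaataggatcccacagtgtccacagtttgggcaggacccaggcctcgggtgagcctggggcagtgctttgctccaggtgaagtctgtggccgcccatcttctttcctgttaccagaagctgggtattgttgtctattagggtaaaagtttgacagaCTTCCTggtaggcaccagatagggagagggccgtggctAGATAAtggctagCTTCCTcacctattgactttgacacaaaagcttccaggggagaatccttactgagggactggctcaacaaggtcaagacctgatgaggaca
The F8 window held none of the 4 motifs, nor did the windows of Procr and F3. The outer Tfpi window held 1 AGGAAG match, and the inner one held 2 AGGAAG matches and 1 AGATAA match. Of all 32851 promoter windows in the RefSeq table, 3.6% held GTAAACA, 6.3% CAAAACA, 11.2% AGATAA and 35.4% AGGAAG. A match is a run of letters and not a binding site, and the windows are short.

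Values are log2 levels after quantile normalization, so a difference of 1 is a 2-fold difference in signal, and levels are compared between arrays for 1 probe set and not between genes. The brightest probe set stood for each gene, and genes entered the test when at least 1 tissue had a mean of 6.87 or more. This limit is the 40th percentile, over probe sets, of the highest tissue mean of each probe set. Below that level signals are dim and the size of a change is uncertain. Of the 8 genes, 7 were tested, among 13034. Plau was not, since both its probe sets stayed below the limit. "Rose" and "fell" are used for an adjusted p under 0.05 in limma (Benjamini-Hochberg over all genes tested), and other differences are given as values. Replicate arrays correlated at r of 0.970 to 0.987 across genes. Of the floxed genes, Foxo1 was lower in Cre+ LSEC on 3 of its 4 probe sets (log2 fold change -0.93 to -3.56) and Foxo3 on 2 of 3 (-0.53 and -0.58), and Foxo4 on 1 of 2 (-2.15), each past the threshold over all probe sets. In Cre+ thymus 1 Foxo1 probe set (-1.19, limma adjusted p = 0.0494) and 1 Foxo4 probe set (-3.24, adjusted p = 0.00432) were lower. In Cre+ lung endothelium the 4 Foxo1 probe sets gave -0.37 to -1.29 and the 2 Foxo4 probe sets -0.61 and -1.10, none passing (adjusted p = 0.271 to 1). The 3 Foxo3 probe sets gave 0.01 to 0.68 in lung endothelium and thymus, none passing. The files do not say where these probe sets lie relative to the deleted exons. A list of 10 pan-endothelial markers (Cdh5, Pecam1, Kdr and others) had a mean log2 level per array of 9.97 to 10.21 in Cre+ LSEC, 10.30 to 10.63 in control LSEC, 9.50 to 9.60 in Cre+ lung, 9.76 to 10.07 in control lung, 6.16 to 6.29 in Cre+ thymus and 6.07 to 6.19 in control thymus. The lung samples also carried fibroblast and mural markers (list mean per array 10.37 to 10.62 over all 4 lung arrays, against 6.65 to 7.38 over the 6 LSEC arrays) and lung epithelial markers (10.08 to 10.31, against 6.96 to 7.20 in LSEC).

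**Figure D1:**
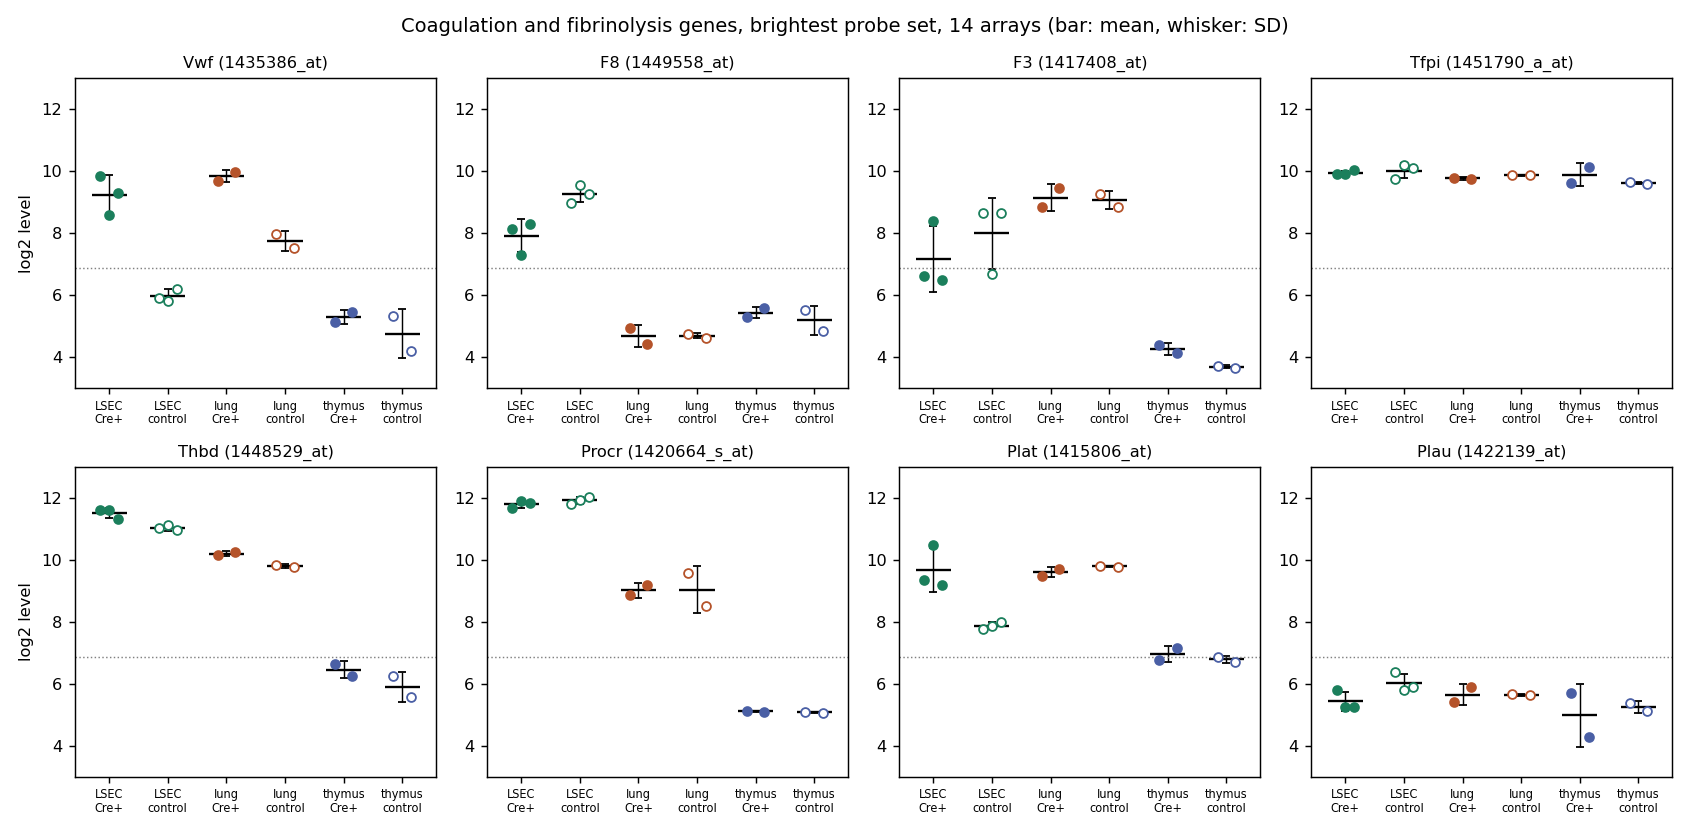
Log2 level (vertical axis, 3 to 13 in every panel) of the brightest probe set of the 8 genes in each of the 14 arrays, with filled points for Cre+ and open points for control, the mean as a bar and the SD as a whisker; the dotted line is the limit for dim genes at 6.87. Vwf, Plat and Thbd were higher and F8 lower in all 3 Cre+ LSEC arrays than in any control LSEC array. The LSEC groups of 23.7% of all genes did not overlap. Plau lay below the line everywhere.

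Vwf rose 9.64-fold and Plat rose 3.47-fold in Cre+ LSEC, F8 fell 2.55-fold, and Thbd, Procr, Tfpi and F3 did not pass. Thus 3 of 7 tested members were called, against 6.06% of all genes tested in that comparison (2.81% higher and 3.25% lower). The members were chosen with earlier results of these data known, and these shares were not tested against each other. The median log2 fold change was -0.07 over the 7 members and 0.01 over all genes. In lung endothelium and in thymus no member passed, where 0.107% and 0.414% of all genes did. Nor did any of the 13 member probe sets there, where 0.00888% and 0.0555% of all probe sets passed. Vwf, F8, Thbd, Procr and F3 were dim in every thymus array, and F8 in every lung array. Changes of these genes there could have gone unseen. At an unadjusted p under 0.05, limma counted 4 members in LSEC, 1 in lung endothelium (Vwf) and 1 in thymus (Thbd), against 19.9%, 4.56% and 12.4% of all genes.

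Vwf, the platelet tether, was dim in control LSEC and above the limit for dim genes in all Cre+ LSEC arrays. Its log2 level was 9.84, 8.59 and 9.31 in the 3 Cre+ LSEC arrays, against 5.91, 5.80 and 6.21 in the 3 control LSEC arrays. Every Cre+ array stood more than 2 log2 units above every control array, and the groups of 23.7% of all genes did not overlap in this comparison. The log2 fold change was 3.27 (SE 0.32, 95% interval 2.56 to 3.98, limma adjusted p = 0.000177). Because the control level, 5.97 ± 0.21 (SD, n = 3), lies in the dim range, the size of the rise is uncertain. In lung endothelium Vwf read 9.70 and 9.98 in the Cre+ arrays, against 7.96 and 7.51 in the control arrays. The 2 groups did not overlap, as for 38.4% of all genes there, and the log2 difference of 2.11 (95% interval 1.24 to 2.98, unadjusted p = 0.000232) did not pass over all genes (limma adjusted p = 0.121). With array weights it did (2.11, adjusted p = 0.0248). In the other 13 of 14 alternatives it did not, the replicate block among them (2.11, adjusted p = 0.413). In thymus the values were 5.12 and 5.45 in Cre+ and 5.31 and 4.19 in control samples, all dim and overlapping (difference 0.53, 95% interval -0.34 to 1.40, adjusted p = 0.644).

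In Vwf the order of group means was Cre+ lung endothelium (9.84 ± 0.20, n = 2), Cre+ LSEC (9.24 ± 0.62, n = 3), and control lung endothelium (7.74 ± 0.32, n = 2), with SD as the error. Below the limit for dim genes, and not ordered among themselves, were Cre+ thymus (5.28 ± 0.23, n = 2), control LSEC (5.97 ± 0.21, n = 3) and control thymus (4.75 ± 0.80, n = 2). The arrays of Cre+ lung endothelium and Cre+ LSEC overlapped. All Cre+ LSEC arrays lay above both control lung arrays.

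Platelets and megakaryocytes also contain Vwf. Of 10 platelet and megakaryocyte markers 7 were tested in LSEC. None rose and 1 fell, Clec1b (log2 fold change -2.24, limma adjusted p = 0.000508), a platelet receptor gene that LSEC also express. The mean level of the list per array, with Clec1b in it, was 8.11 to 8.32 in Cre+ LSEC, against 8.39 to 8.68 in control LSEC. The median log2 fold change of the list was -0.11. Pf4, platelet factor 4, was 0.60 higher without passing (adjusted p = 0.366). No platelet marker was at 0, and the part of platelet RNA in the Vwf values was not tested. Of 11 markers of arteries and veins, 10 were tested: Nr2f2, a venous transcription factor gene, rose (0.46) and Ackr1, a venular chemokine receptor gene, fell (-0.87), with list means per array of 8.17 to 8.44 in Cre+ LSEC and 8.19 to 8.35 in control LSEC. Mast cell genes were higher in Cre+ LSEC, 3 of 6 tested, with list means of 7.63 to 8.46 in Cre+ LSEC, against 6.54 to 6.78 in control LSEC. Of the 10 pan-endothelial markers 2 fell and none rose in LSEC (median log2 fold change -0.18), and none passed in lung endothelium (median -0.36). Of other marker lists in LSEC, 1 of 4 tested neutrophil genes and 1 of 5 hepatocyte genes rose and 2 of 10 stellate, fibroblast and mural genes fell, and none of 7 macrophage, 3 mesothelial, 8 lung epithelial, 7 T cell and 4 B cell genes passed. The part of these cells in the member values was not tested. In RNA from pooled cells a change in the share of a cell type and a change in RNA per cell cannot be told apart.

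F8, the clotting cofactor that Vwf carries, was lower in Cre+ LSEC. Its log2 level was 8.14, 7.30 and 8.31 in Cre+ LSEC, against 8.99, 9.55 and 9.28 in control LSEC. The groups did not overlap, as for 23.7% of all genes in LSEC, and replicate 2 was the lowest of the Cre+ arrays. The log2 fold change was -1.35 (SE 0.27, 95% interval -1.94 to -0.77, limma adjusted p = 0.0125). The call was lost without control replicate 2 (-1.22, adjusted p = 0.0523) and when only LSEC arrays were fitted (-1.35, adjusted p = 0.0551). F8 was dim in all other groups, between 4.43 and 5.57 over the 4 lung and 4 thymus arrays. The Cre+ minus control differences there were 0.00 (95% interval -0.71 to 0.72) in lung endothelium and 0.25 (-0.46 to 0.97) in thymus. Vwf and F8 thus stood on opposite sides in Cre+ LSEC. LSEC markers moved in the same direction as F8: 8 of 10 fell and none rose, with list means per array of 8.60 to 9.33 in Cre+ LSEC, against 10.43 to 10.95 in control LSEC. Their part in the F8 values was not tested.

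F3, which starts coagulation, varied within both LSEC groups. It read 6.61, 8.40 and 6.48 in Cre+ LSEC, against 8.66, 6.67 and 8.66 in control LSEC. Replicate 2 was the highest of the Cre+ arrays and the lowest of the control arrays, and through it the groups overlapped, while the other 2 Cre+ arrays lay below all control arrays. The difference of -0.83 had a 95% interval of -2.07 to 0.40 (adjusted p = 0.465), and it was -1.50 without control replicate 2 and -1.45 without Cre+ replicate 2 (adjusted p = 0.117 and 0.142). F3 was 8.83 and 9.46 in Cre+ and 9.26 and 8.85 in control lung endothelium, and dim in thymus (4.39 and 4.12 in Cre+, 3.71 and 3.65 in control). The thymus groups did not overlap, as for 41.6% of all genes there (difference 0.57, 95% interval -0.95 to 2.08).

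Tfpi, the inhibitor of the tissue factor pathway, did not pass in any tissue. On its brightest probe set, 1451790_a_at, it read 9.91, 9.92 and 10.03 in Cre+ LSEC, against 9.76, 10.21 and 10.09 in control LSEC (difference -0.07, 95% interval -0.36 to 0.23). The interval in lung endothelium was -0.46 to 0.27 and in thymus -0.09 to 0.64. All 4 Tfpi probe sets lay within 0.19 of no difference in LSEC.

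The 4 Tfpi probe sets did not rank the tissues alike. On 1451790_a_at thymus stood level with endothelium, with 9.64 and 10.15 in Cre+ and 9.64 and 9.59 in control thymus. On 1438530_at the same RNA gave 5.82 and 5.76 in Cre+ and 5.32 and 5.37 in control thymus, against 9.67 to 9.86 in Cre+ and 9.77 to 10.02 in control LSEC. Probe set 1452432_at had 5.55 and 4.97 in Cre+ and 5.32 and 5.15 in control thymus, and 1451791_at had 6.95 and 6.67 in Cre+ and 6.81 and 7.21 in control thymus. Over the 14 arrays the last 3 correlated with each other at r of 0.963 to 0.993 and with 1451790_a_at at 0.418 to 0.498, as a description, since tissue sets these values. In the naming of Affymetrix the suffix _a_at marks probes shared by alternative transcripts of 1 gene. LSEC and lung endothelium differed on 2 of the 4: control LSEC exceeded control lung endothelium by 0.93 on 1438530_at and by 1.12 on 1452432_at (limma adjusted p = 0.000222 and 0.00133 over all 45037 probe sets), and the differences on 1451790_a_at and 1451791_at were 0.15 each (adjusted p = 0.555 and 0.653).

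**Figure D2:**
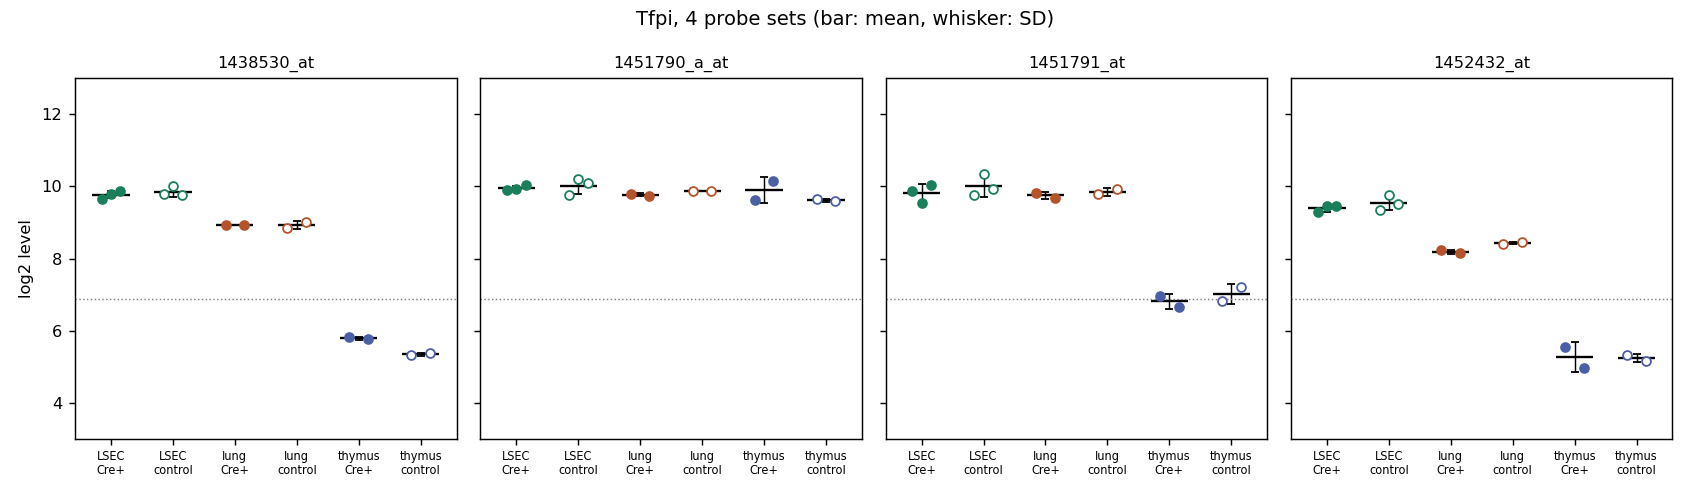
Log2 level of the 4 Tfpi probe sets in the 14 arrays, with filled points for Cre+, open points for control, means as bars and SDs as whiskers; the dotted line is the limit for dim genes at 6.87. Thymus lies near 10 on 1451790_a_at and between 4.97 and 7.21 on the other 3.

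Thbd, the thrombin receptor of the protein C pathway, stood higher in Cre+ than in control samples of all 3 tissues without passing. It read 11.62, 11.63 and 11.34 in Cre+ LSEC, against 11.02, 11.12 and 10.96 in control LSEC. It read 10.15 and 10.26 in Cre+ lung endothelium, against 9.84 and 9.76 in control lung endothelium, and 6.65 and 6.26 in Cre+ thymus, against 6.25 and 5.56 in control thymus, where it was dim. In each tissue the arrays did not overlap, as for 23.7%, 38.4% and 41.6% of all genes. The differences were 0.49 (95% interval 0.14 to 0.85), 0.41 (-0.03 to 0.84) and 0.55 (0.11 to 0.99), with limma adjusted p of 0.107, 1 and 0.284.

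Procr, which presents protein C to the thrombin-thrombomodulin complex, did not pass between genotypes in any tissue. It read 11.67, 11.91 and 11.85 in Cre+ LSEC, against 11.82, 11.93 and 12.04 in control LSEC. In lung endothelium it read 8.85 and 9.19 in Cre+ and 9.57 and 8.50 in control arrays, and in thymus every array lay between 5.07 and 5.13. The differences were -0.12 (95% interval -0.58 to 0.34) in LSEC, -0.02 (-0.58 to 0.55) in lung endothelium and 0.03 (-0.54 to 0.59) in thymus. The arrays allow a difference of either sign within these bounds.

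Plat, the tissue-type plasminogen activator gene, rose in Cre+ LSEC. It read 9.34, 10.50 and 9.19 in Cre+ LSEC, against 7.77, 7.87 and 8.01 in control LSEC. The groups did not overlap, as for 23.7% of all genes in LSEC, and replicate 2 was the highest of the Cre+ arrays. The log2 fold change was 1.79 (SE 0.27, 95% interval 1.20 to 2.39, limma adjusted p = 0.00257), and 1.38 without Cre+ replicate 2 (adjusted p = 0.000278). In lung endothelium Plat read 9.49 and 9.72 in Cre+ and 9.81 and 9.78 in control arrays, a difference of -0.19 (-0.92 to 0.53). In thymus it read 6.78 and 7.15 in Cre+ and 6.87 and 6.70 in control arrays, a difference of 0.18 (-0.55 to 0.90). A second Plat probe set, 1458553_at, stayed between 6.06 and 6.63 on all 14 arrays, below the limit for dim genes, and gave -0.29 in LSEC (adjusted p = 0.285 over all probe sets). With the mean of both probe sets in place of the brightest, the LSEC value was 0.75 (adjusted p = 0.0169).

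Plau, the urokinase gene, was dim throughout. Its brightest probe set, 1422139_at, ran from 5.24 to 5.79 in Cre+ LSEC, 5.79 to 6.37 in control LSEC, 5.40 to 5.88 in Cre+ lung, 5.63 to 5.67 in control lung, 4.27 to 5.71 in Cre+ thymus and 5.11 to 5.38 in control thymus. In the fit of all probe sets its LSEC differences were -0.58 on 1422139_at and -0.51 on 1422138_at (adjusted p = 0.486 and 0.47). In that fit 2 of the 13 member probe sets passed in LSEC, those of Vwf and of the brighter Plat set, against 1.80% of all probe sets, and F8 had an adjusted p of 0.0504.

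**Figure D3:**
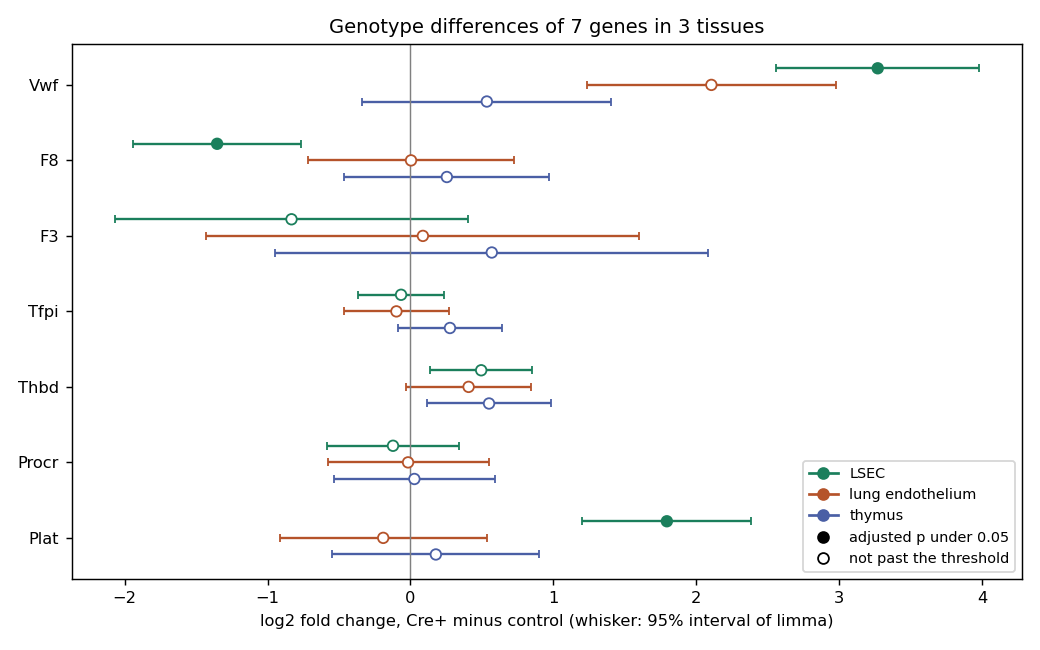
Log2 fold change, Cre+ minus control, of the 7 tested genes in LSEC, lung endothelium and thymus, with 95% intervals of limma as whiskers and filled points where the adjusted p is under 0.05. Only the LSEC points of Vwf (3.27), F8 (-1.35) and Plat (1.79) are filled.

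Whether the genotype differences themselves differed between tissues was tested as a difference of log2 fold changes. For Vwf, dim in every thymus array and in control LSEC, the LSEC difference exceeded that in thymus by 2.74 (95% interval 1.61 to 3.86, limma adjusted p = 0.0209), 1 of 7 members against 2.34% of all genes. That call was lost without control thymus replicate 1 (2.17, adjusted p = 0.0719), without Cre+ thymus replicate 2 (2.90, adjusted p = 0.0677), with no filter on dim genes (2.74, adjusted p = 0.062) and when only LSEC and thymus arrays were fitted (2.74, adjusted p = 0.0557). Between LSEC and lung endothelium it was 1.16 (0.04 to 2.29, adjusted p = 0.502), so a larger Vwf difference in LSEC than in lung was not shown. For Plat the LSEC difference was 1.98 above that in lung endothelium (1.05 to 2.92, adjusted p = 0.0763) and 1.62 above that in thymus (0.68 to 2.55, adjusted p = 0.0779). Both passed without Cre+ LSEC replicate 2 (1.57 and 1.21, adjusted p = 0.00833 and 0.0124) and without Cre+ LSEC replicate 3 (2.23 and 1.86, adjusted p = 0.0357 and 0.0473). Plat against lung also passed on values as deposited (2.12, adjusted p = 0.0449), with median centring (2.10, adjusted p = 0.0476) and with array weights (1.85, adjusted p = 0.0245). It did not pass in the other 15 of 20 alternatives, the replicate block among them (1.98, adjusted p = 0.214). Plat against thymus did not pass in 17 of 19 alternatives. For F8 the differences were -1.36 against lung endothelium and -1.61 against thymus (adjusted p = 0.265 and 0.0775). No member passed against lung endothelium, where 0.614% of all genes did, and 3 of the 7 had an unadjusted p under 0.05 in limma, against 9.57% of all genes. Against thymus 3 had one, and so did 16.6% of all genes. None of the 13 member probe sets passed in either test of a difference, where 0.0289% (lung endothelium) and 0.262% (thymus) of all probe sets did.

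LSEC were also set against lung endothelium within each genotype. In control animals LSEC exceeded lung endothelium in F8 (log2 difference 4.59, 9.27 ± 0.28, n = 3, against 4.68 ± 0.08, n = 2), Procr (2.90) and Thbd (1.23), and stood below it in Plat (-1.91) and Vwf (-1.76). F8 was dim in all lung arrays and Vwf in all control LSEC arrays, so the sizes of these 2 differences are uncertain, in Cre+ arrays for F8 too. These 5 of 7 members passed, with limma adjusted p from 7.25e-07 for F8 to 0.00215 for Vwf, against 46.1% of all genes (25.9% higher and 20.2% lower in LSEC). The same 5 were those with an unadjusted p under 0.05, as for 53.1% of all genes, and the arrays of 6 members did not overlap, as for 67.7%. Of the 13 member probe sets 7 passed, against 25.5% of all probe sets. F8 entered the test of genes only through LSEC, since all its lung and thymus arrays lay below the limit. In the fit of all probe sets, which has no such filter, F8 had a limma adjusted p of 1.38e-05 in control animals. Tfpi (0.15) and F3 (-1.06, adjusted p = 0.19) did not pass. The fibroblast and epithelial markers of the lung samples belong to cells that can express Plat, F3 and Procr, and their part in these values was not tested. In Cre+ animals LSEC exceeded lung endothelium in F8 (3.24), Procr (2.79) and Thbd (1.32) and stood below it in F3 (-1.98, adjusted p = 0.0245), 4 of 7 members against 44.1% of all genes (24.8% higher and 19.3% lower in LSEC). At an unadjusted p under 0.05 the count was also 4, against 51.8% of all genes, and the arrays of 5 members did not overlap, as for 65.3%. Of the 13 member probe sets 5 passed, against 22.9%. Plat differed by 0.07 (95% interval -0.59 to 0.73) and Vwf by -0.60 (-1.39 to 0.20), and neither passed. The F3 call was lost without either Cre+ lung array (-2.29 and -1.67, adjusted p = 0.0596 and 0.142), without Cre+ LSEC replicate 1 (-1.70, adjusted p = 0.0716) and without Cre+ LSEC replicate 3 (-1.64, adjusted p = 0.0791).

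**Figure D4:**
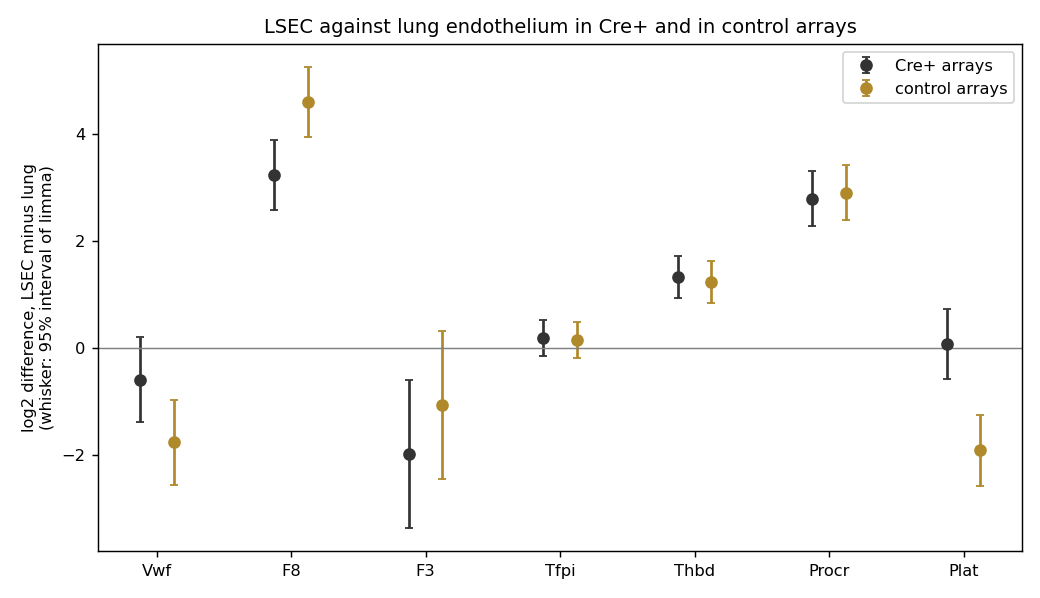
Log2 difference of LSEC minus lung endothelium for the 7 tested genes, in Cre+ arrays (dark, left of each pair) and control arrays (ochre, right), with 95% intervals of limma. F8, Procr and Thbd lie above 0 in both, and Plat and Vwf lie below 0 in control arrays and have intervals that include 0 in Cre+ arrays.

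Other genes of haemostasis were read from 5 lists. In LSEC, 2 of 5 tested anticoagulant genes fell: Tfpi2, which encodes a Kunitz-type protease inhibitor related to Tfpi, and Pros1, which encodes protein S, the cofactor of activated protein C. Tfpi2 read 9.46, 9.76 and 8.60 in Cre+ LSEC, against 10.76, 11.02 and 10.96 in control LSEC (log2 fold change -1.64, limma adjusted p = 0.00197). Pros1 read 10.68, 10.55 and 10.98 in Cre+ LSEC, against 11.33, 11.43 and 11.13 in control LSEC (-0.56, adjusted p = 0.02). Neither group pair overlapped, as for 23.7% of all genes in LSEC. The Tfpi2 call held in every alternative, and that of Pros1 was lost without control LSEC replicate 1 or 2 or Cre+ LSEC replicate 1 or 2 (-0.54, -0.49, -0.53 and -0.47, adjusted p = 0.0613, 0.0742, 0.0636 and 0.0652). The list median was -0.07, against 0.01 over all genes.

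Among 8 tested receptors and platelet-quieting genes, 2 rose and 1 fell in LSEC. Entpd1, which encodes the ectonucleotidase CD39 that degrades platelet-activating nucleotides, read 9.93, 9.99 and 9.75 in Cre+ LSEC, against 8.53, 8.82 and 9.22 in control LSEC (1.03, adjusted p = 0.00364). Nos3, the endothelial nitric oxide synthase gene, read 9.40, 10.28 and 9.50 in Cre+ LSEC, against 8.69, 8.48 and 8.50 in control LSEC (1.17, adjusted p = 0.00506). F2r, the gene of the thrombin receptor PAR1, read 12.11, 11.61 and 12.22 in Cre+ LSEC, against 12.67, 12.86 and 12.38 in control LSEC (-0.66, adjusted p = 0.0377). In all 3 genes the arrays of the groups were separate, as for 23.7% of all genes in LSEC, and the list median was 0.30. The calls of Entpd1 and Nos3 held in every alternative. That of F2r was lost without control LSEC replicate 1 or 2 or Cre+ LSEC replicate 1 or 2 (-0.64, -0.55, -0.72 and -0.47, adjusted p = 0.0973, 0.126, 0.0597 and 0.0925).

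Genes of the Weibel-Palade body and of Vwf handling did not rise with Vwf. Of 16 tested in LSEC 2 fell and none rose, with a median of -0.12: Angpt2, whose product angiopoietin 2 is stored with Vwf (-3.84, adjusted p = 2.87e-06), and Stab2, a scavenger receptor gene of LSEC (-1.18, adjusted p = 0.0434). Stab2 is also counted among the LSEC markers above. The Angpt2 call held in every alternative. That of Stab2 was lost when any LSEC array but Cre+ replicate 3 was left out (-1.36 to -0.85, adjusted p = 0.0513 to 0.142). Angpt2 read 7.95, 7.86 and 7.60 in Cre+ LSEC, against 11.42, 12.04 and 11.47 in control LSEC. Selp, the gene of the granule's P-selectin, was 1.26 lower without passing (adjusted p = 0.0627). In lung endothelium Angpt2 and Edn1, the endothelin 1 gene, were lower by -1.53 and -1.35 without passing (adjusted p = 0.052 and 0.0999), and none of the 16 passed.

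No gene passed in LSEC among 7 tested coagulation factor genes (median 0.10) and 7 tested fibrinolysis partners (median -0.10). In limma, F2, prothrombin, and Klkb1, plasma prekallikrein, had the smallest p of the first list (adjusted p = 0.45 and 0.38). Plgrkt, a plasminogen receptor gene, and Anxa2, which encodes a plasminogen- and Plat-binding annexin, had those of the second (adjusted p = 0.0766 and 0.126). Of the 16 coagulation factor genes, most of them made by hepatocytes, 9 were below the limit for dim genes. In lung endothelium no gene of the 5 lists passed, and F13a1, the factor XIII A chain gene of macrophages, had the largest log2 difference among the coagulation factor genes (1.47, 11.01 and 10.63 in Cre+, against 8.93 and 9.76 in control, adjusted p = 1). In thymus S100a10, whose product forms a plasminogen-binding complex with annexin A2, fell (-0.57, adjusted p = 0.0199), and Igfbp7, an endothelial secreted protein gene, rose (0.78, adjusted p = 0.02). Both calls were lost without either control thymus array or Cre+ thymus replicate 2 (adjusted p = 0.0696 to 0.204 for S100a10 and 0.0584 to 0.214 for Igfbp7), and Igfbp7 was 0.31 with the mean of all its probe sets. The 10 stellate, fibroblast and mural markers had list means per array of 8.51 to 8.59 in Cre+ thymus, against 8.02 to 8.12 in control thymus, with 1 of 10 higher past the threshold (Col3a1, a collagen gene, 0.75) and a median of 0.46. The pan-endothelial markers had a median of 0.05 there. The part of these cells in the thymus values was not tested.

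**Figure D5:**
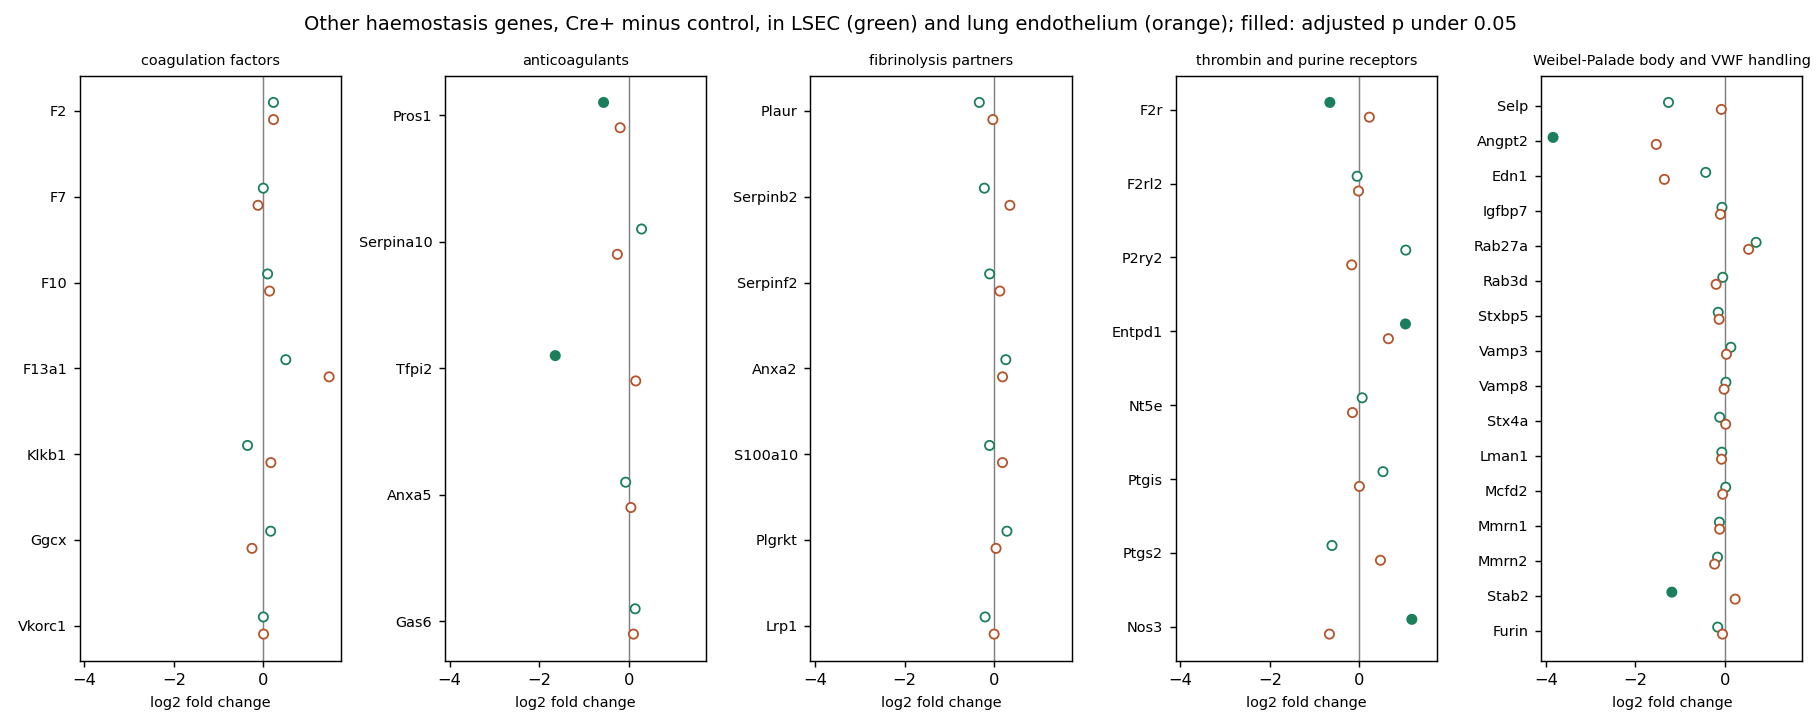
Log2 fold change, Cre+ minus control, of the tested genes of the 5 haemostasis lists in LSEC (green) and lung endothelium (orange), 1 gene per line, filled where the adjusted p is under 0.05. Filled points are Pros1, Tfpi2, F2r, Entpd1, Nos3, Angpt2 and Stab2, all in LSEC.

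Pearson's r over the 14 arrays mixes differences between tissues with those between genotypes, and their parts were not separated. For Tfpi it was taken on 1451790_a_at, which correlated with the other Tfpi probe sets at only 0.418 to 0.498. The genes whose levels were most like those of each member were found by this r. They were Snx18, Serpinb9 and Bcl9l for Vwf (r = 0.938, 0.929 and 0.926), and Oit3, Stab2 and Snx16 for F8 (0.991, 0.987 and 0.985). For Plat they were Gucy1b1, Foxc2 and Hs6st2 (0.974, 0.966 and 0.962). For F3 they were Bhlhe40, Ccng1 and Nptx1 (0.971, 0.970 and 0.965), for Tfpi Pld2, Gm5142 and Podn (0.907, 0.892 and 0.875), for Thbd Cyb5r1, Wwc2 and Tmem120a (0.997, 0.995 and 0.995) and for Procr Pgk1, Cptp and Myo7a (0.997, 0.996 and 0.996).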

How the data were processed

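Each of 14 RNA samples was hybridised to 1 Affymetrix array. Per the labels' protocols, biotinylated cRNA was made in vitro from oligo-dT-primed cDNA. The deposited table holds 1 log2 value per probe set and array, from 0 to 13.8. The log base is inferred from this range, and how the authors summarized and normalized the arrays is not given in the sources used here. Array medians spread over 0.282, so arrays were quantile normalized. Probe sets with 1 symbol were named from the array annotation and the GRCm38.p6 gene table. With the brightest probe set per gene and the limit of 6.87, 13034 of 18193 genes were tested. The 6 group means were fitted over all 14 arrays with limma 3.58.1 (lmFit, eBayes) in R 4.3.3 (residual degrees of freedom 8, prior 3.21). The Benjamini-Hochberg adjustment ran over all genes, separately for the 7 contrasts, with a threshold of 0.05. A fit of all 45037 probe sets other than array controls, without a filter, served the further probe sets. The method was tested on simulated data.

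The members, lists and contrasts were chosen with earlier results of these data known. Genes named were the 8 members, up to 4 passing genes of each of 5 haemostasis lists per comparison of genotypes or the 2 with the smallest p, and the 3 most similar genes per member. Selp, Clec1b, Pf4, Nr2f2, Ackr1 and Col3a1 were named after their values were seen. A further 13 lists held cell type markers. F2 stands in the coagulation factor and hepatocyte lists, and Stab2 in the Weibel-Palade and LSEC marker lists. Selp, named with the Weibel-Palade genes, is also among the markers of arteries and veins. Alternatives covered scaling, the filter, probe set averaging, the variance model, array weights, the arrays fitted, a block on replicate number, and omission of each array. No sequence depth is defined for arrays, and the number of arrays limits precision.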

Additional observations from a re-analysis of the deposited data

Results flagged for a closer look

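The Cre+ minus control difference of Vwf was not alike in LSEC and thymus: its log2 fold change was 2.74 larger in LSEC (limma adjusted p = 0.0209), with 3.27 in LSEC and 0.53 in thymus. It stood out because the test of the difference itself passed. Vwf was higher in 3 of 3 Cre+ LSEC arrays than in any control LSEC array, and the LSEC groups of 23.7% of all genes did not overlap. All thymus and all control LSEC arrays were below the limit for dim genes, so a change in thymus could have gone unseen and the size of the difference is uncertain. The call was lost under 5 alternatives: without control thymus replicate 1 (adjusted p = 0.0719), without Cre+ thymus replicate 2 (0.0677), with no filter (0.062), with only the arrays compared (0.0557) and with the replicate block (0.0871).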

How the results depend on the processing

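In the fit of 1 value per gene, every alternative was run, omission of each LSEC array included. There the LSEC calls of Vwf (log2 fold change 2.97 to 3.60) and Plat (0.75 to 2.04) kept their direction and stayed past the threshold. That of F8 (-1.55 to -1.04) kept its direction. In the fit of all probe sets the calls of Vwf and Plat did not hold throughout, as given below. Leaving out each array gave 2 to 3 members called in LSEC, 0 in lung endothelium, 0 in thymus, 0 to 1 and 0 to 2 for the differences from lung endothelium and thymus, 5 for control and 3 to 4 for Cre+ LSEC against lung. Of the 13 member probe sets it left 1 to 2, 0, 0, 0, 0, 6 to 7 and 5 to 6 in the same order. Against lung endothelium, 1 member in place of 0 differed in its genotype effect with median centring, on values as deposited and with array weights. Against thymus, 0 in place of 1 did with no filter, with only the arrays compared and with the replicate block. With array weights 1 member passed in lung endothelium. Of the member probe sets, 0 in place of 2 passed in LSEC with only the arrays compared and with the replicate block, 3 did with median centring and with trend and robust on, and 1 in place of 0 differed from thymus with trend and robust on. The replicate block took F8 in LSEC to an adjusted p of 0.0683 and Vwf against thymus to 0.0871. The labels do not say what samples of the same number have in common. Their deviations from the group means correlated at -0.31, -0.09 and -0.26 in LSEC and 0.05 in thymus, and no LSEC sample correlated best with its own number. Deviations from a mean of 2 or 3 arrays depend on each other, so these values cannot decide whether samples were paired. The cause of the shifts between settings was not tested. Some settings by themselves bring fewer arrays or a larger number of genes, and the replicate block adds terms to the model.

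Genes called over all genes ranged from 352 to 939 in LSEC (790 as reported, 352 with the replicate block), 0 to 54 in lung endothelium (14 as reported, 0 with the replicate block), 4 to 241 in thymus (54 as reported), 1 to 168 for LSEC against lung effects (80 as reported), 23 to 666 for LSEC against thymus effects (305 as reported), 4177 to 6908 for the control beds (6011 as reported) and 3820 to 6364 for the Cre+ beds (5748 as reported). Same-numbered lung samples deviated in opposite directions (r = -0.24), and a block with the lung numbers crossed, chosen after seeing the data, called 3 genes in lung endothelium and 15 for LSEC against lung effects. Of 9 other haemostasis genes called, run through the same alternatives after seeing the data, Tfpi2, Entpd1, Nos3 and Angpt2 stayed past the threshold throughout. Besides the losses on leaving out arrays, Pros1 lost its call under 2 settings (adjusted p = 0.0958 and 0.121), F2r under 3 (0.0812 to 0.161), Stab2 under 5 (0.0513 to 0.123), S100a10 under 6 (0.0518 to 0.308) and Igfbp7 under 5 (0.0518 to 0.345), the replicate block and only the arrays compared among them for each gene. The mean of all probe sets called Tfpi higher in LSEC than in lung endothelium in Cre+ (0.58) and control (0.59) arrays. Of the uncalled member results, 11 changed sign under some alternative. With 2 or 3 arrays a group, small changes could not be shown, and genes below 6.87 have uncertain sizes.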
